A study of Homo sapiens with 2 samples.

Results

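The RAB GTPases are the largest branch of the RAS superfamily and direct membrane traffic between organelles. Each cycles between a GDP form held in the cytosol by GDI proteins and a GTP form on one membrane, where it recruits effectors such as tethers, motors and coat adaptors. Exchange factors load GTP, GTPase activating proteins end the active state, and a geranylgeranyl lipid added by RABGGTA and RABGGTB with an escort protein anchors the RAB in the membrane. The family was described here in 293T cells, an established line derived from human embryonic kidney, given Y27632, which blocks ROCK1 and ROCK2, kinases of actomyosin contraction.

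Members were all genes whose current symbol is RAB, a number and at most 1 further letter, with a value on at least 1 array. This gave 43 of 11057 named genes. Effectors and regulators whose names begin with RAB were not counted. RefSeq holds 64 symbols of this form. RAB27B had a probe without a value on either array, and no probe could be assigned to any of the other 20 symbols. Medians by role below therefore cover only the measured members of each role. RAB30 and RAB37 had a value at 3 h and none at 6 h, so 41 members were compared at 6 h. RAB29 was listed under its older symbol RAB7L1. The listed symbols RAB7 and RAB39 each stand for more than 1 current gene (RAB7A or RAB7B, and RAB39A or RAB34) and were left out of the counts.

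There were 2 groups, cells exposed to 10 µM Y27632 for 3 h and cells exposed for 6 h. Each was set against untreated 293T cells given a time of 0 h. The title of each array reads 293T, control and the time, and the treatment is taken from the source name of the treated channel. What control means in the titles was not established. Each comparison was made on 1 two-colour array with the treated RNA in Cy3 and the untreated RNA in Cy5, without a dye swap. No value has a replicate and no p-value is given. The inhibitor cannot be told apart from time in culture, handling or vehicle, and it is not stated if 1 preparation of untreated RNA served both arrays. In bulk RNA, a different share of cells and a different amount of RNA per cell cannot be told apart.

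Values are the deposited log ratios, read as base 2. Neither the base nor the numerator is given in the sources used here, so a positive value may mean higher or lower in treated cells, and signs below are those of the deposited ratio. Of 24267 probes, 20503 had a value at 3 h and 20337 at 6 h, which gave 10810 and 10716 named genes. The median named gene lay at 0.02 on each array. Ratios carry no expression level, so markers of 293T could not be checked, and levels were not compared between genes. All 43 members had 1 probe each. The only error available is the spread between probes of 1 gene, taken from 572 other genes with several probes. That within-gene SD was 0.31 at 3 h, 0.33 at 6 h and 0.30 for the difference of the arrays. The RAB7 probe gave 0.07 at 3 h and −0.02 at 6 h, and the RAB39 probe gave −0.11 and 0.14.

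Most RAB genes lay close to 0 on both arrays. At 3 h, 28 of 43 members were positive (65.1%), against 51.3% of all named genes, and the median member had a log ratio of 0.09, against 0.02 for all named genes. At 6 h, 23 of 41 members were positive (56.1%), against 51.5% of all named genes, with a median of 0.08, against 0.02. The SD across members was 0.28 at 3 h and 0.32 at 6 h, below the SD across all named genes of 0.36 on each array. It was also below the within-gene SD of probes at each time. Members therefore differed among themselves by less than probes of a single gene did in general.

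A log ratio at least 0.58 from 0, a 1.5-fold difference, was used as the size for counting. At 3 h, 1 member was past it on the positive side, where 4.88% of all named genes were, and 1 on the negative side, where 4.49% were. At 6 h, 2 members were past it on the positive side, against 5.63% of all named genes, and 0 on the negative side, against 4.24%. Read as base 2 logarithms, no member reached 2-fold at either time, a size passed by 1.61% of named genes at 3 h and 1.43% at 6 h. The members' counts are near or below these backgrounds. The base is not stated in the sources used here: read as natural logarithms, the values of RAB21 and RAB6A at 6 h would be 1.15 and 1.02 on the log2 scale, past 2-fold, as would those of 3.23% of named genes on the positive side.

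**Figure D1:**
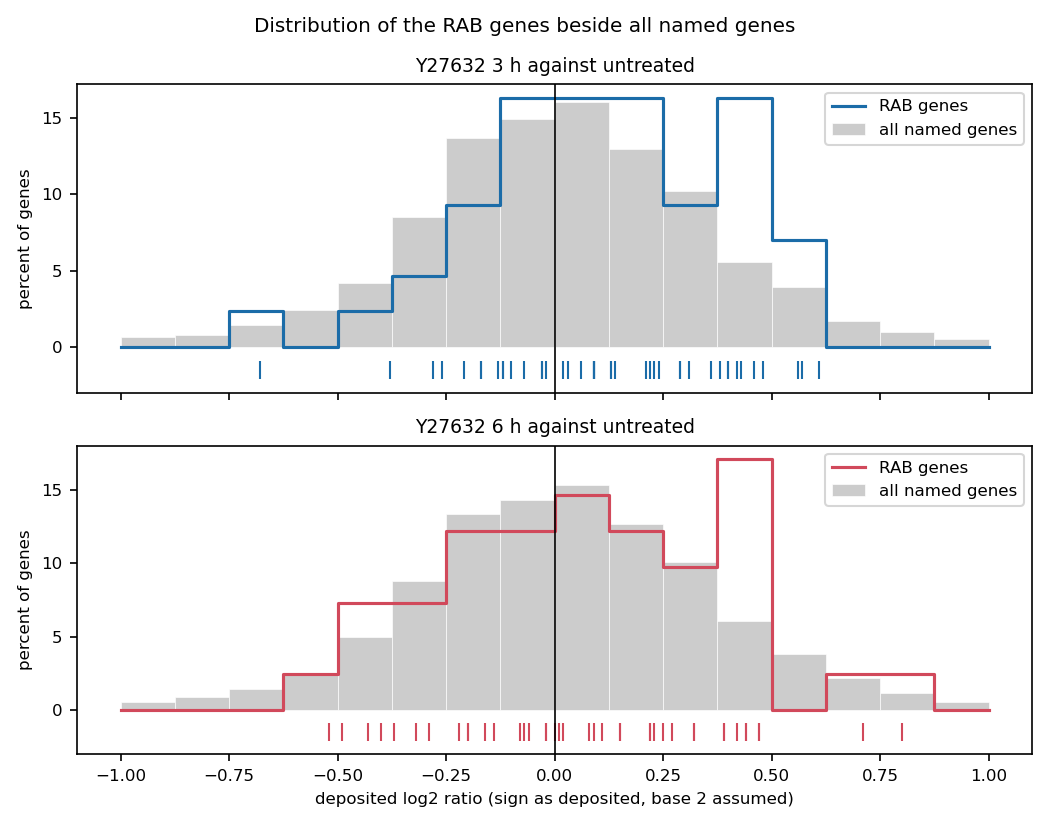
Percent of genes in bins of the log2 ratio, for the RAB genes (coloured line, with a tick for each member) and all named genes (grey bars), at 3 h above and 6 h below; bins run from −1 to 1 and genes farther out are not drawn. The RAB genes span −0.68 to 0.61 at 3 h and −0.52 to 0.80 at 6 h, and the bin from 0.375 to 0.5, picked after it was seen, holds 16.3% and 17.1% of them, against 5.54% and 6.08% of all named genes.

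The genes past this size were RAB21 and RAB6A on the positive side and RAB9B on the negative side. RAB21, which acts in the endocytic traffic of integrins, had ratios of 0.61 at 3 h and, at 6 h, 0.80 (probe H200014302), 1.53-fold and 1.74-fold differences. Its value was the highest of the family on both arrays, and 4.35% of named genes at 3 h and 1.86% at 6 h lay as high or higher. RAB6A, which drives retrograde traffic to and through the Golgi, had 0.42 and 0.71 (probe H200001082), with a 1.64-fold difference at 6 h. RAB9B, a paralog of the late endosomal RAB9A, had −0.68 and −0.29 (probe H200004609), and 3.24% of named genes at 3 h lay as low or lower. At 3 h the next members inside the size were RAB8B at 0.57 and RAB24 at 0.56, so a line drawn slightly lower would have counted 3 positive members. RAB9B at 3 h and RAB21 and RAB6A at 6 h were the only values of members more than 2 within-gene SDs from 0. The share of all named genes past that limit was not counted, so it does not set these values apart. At 6 h, 3.1% of named genes lay as high as RAB6A or higher.

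A further pair, RAB3D and RAB11B, lay on opposite sides of 0 at the 2 times. RAB3D, known from secretory granules of exocrine cells, had 0.40 at 3 h and −0.49 at 6 h (probe opHsV0400000073). RAB11B, of the recycling endosome, had 0.36 and −0.43 (probe H300004273). None of these 4 values was past 1.5-fold, but the differences between the arrays, −0.89 and −0.79, were.

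The sequences before the start sites of these 5 genes are given because RAB21, RAB6A and RAB9B were past 1.5-fold on an array and RAB3D and RAB11B were past it in the difference of the arrays. Each is the 250 bases upstream of the RefSeq gene start in GRCh38.p14, read 5′ to 3′ on the strand of the gene, and capitals mark GC boxes (GGGCGG on either strand). RAB21 lies at chr12:71754613-71754862, plus strand. RAB6A lies at chr11:73761075-73761324, minus strand. RAB9B lies at chrX:103832258-103832507, minus strand. RAB3D lies at chr19:11339658-11339907, minus strand. RAB11B lies at chr19:8390110-8390359, plus strand.
RAB21: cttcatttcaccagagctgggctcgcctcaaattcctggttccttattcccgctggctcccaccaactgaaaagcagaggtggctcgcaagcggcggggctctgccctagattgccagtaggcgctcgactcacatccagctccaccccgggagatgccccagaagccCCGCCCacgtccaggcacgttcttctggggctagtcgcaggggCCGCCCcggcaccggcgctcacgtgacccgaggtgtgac
RAB6A: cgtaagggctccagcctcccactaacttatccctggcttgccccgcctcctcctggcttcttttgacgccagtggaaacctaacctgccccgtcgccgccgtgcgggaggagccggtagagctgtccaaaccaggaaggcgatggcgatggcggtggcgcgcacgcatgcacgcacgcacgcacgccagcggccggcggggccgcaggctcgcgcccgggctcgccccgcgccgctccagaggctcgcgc
RAB9B: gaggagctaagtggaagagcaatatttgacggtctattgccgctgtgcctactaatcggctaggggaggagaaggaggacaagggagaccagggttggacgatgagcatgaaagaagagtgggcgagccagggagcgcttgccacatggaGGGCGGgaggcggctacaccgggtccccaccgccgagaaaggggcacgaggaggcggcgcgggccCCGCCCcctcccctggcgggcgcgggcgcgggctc
RAB3D: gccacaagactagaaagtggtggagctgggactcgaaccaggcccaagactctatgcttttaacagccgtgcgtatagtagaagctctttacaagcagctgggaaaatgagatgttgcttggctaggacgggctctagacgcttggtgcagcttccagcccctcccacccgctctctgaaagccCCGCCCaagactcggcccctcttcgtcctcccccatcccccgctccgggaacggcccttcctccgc
RAB11B: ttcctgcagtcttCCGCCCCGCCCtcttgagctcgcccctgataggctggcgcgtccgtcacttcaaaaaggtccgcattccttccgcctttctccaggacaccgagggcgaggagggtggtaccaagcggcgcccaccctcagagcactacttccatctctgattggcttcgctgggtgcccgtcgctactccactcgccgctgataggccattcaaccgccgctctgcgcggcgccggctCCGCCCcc

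These windows hold 2 GC boxes for RAB21, 0 for RAB6A, 2 for RAB9B, 1 for RAB3D and 3 for RAB11B, where the first 2 overlap by 1 base and were counted separately. RAB11B also holds 1 CCAAT box (CCAAT) and RAB21 holds 1 E-box (CACGTG). None of the 5 windows holds a cAMP response element (TGACGTCA) or an ETS motif (CCGGAAG). All motifs were searched on both strands and matches of different motifs were allowed to overlap. Such letters occur in many promoters: of 27305 windows of this length, 42.2% hold a GC box, 33.1% a CCAAT box, 6.48% an E-box, 1.75% a cAMP response element and 8.79% an ETS motif. Of the 43 members, 35 had a window, and 26 of these (74.3%) held a GC box, against 60.8% of 8872 named genes with a window. A CCAAT box was held by 25.7% of the members against 35.0% of these genes, an E-box by 14.3% against 8.45%, a cAMP response element by 2.86% against 2.69%, and an ETS motif by 11.4% against 12.7%. The members thus lay above the named genes for some motifs and below them for others, and no difference was tested.

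The number of CpG dinucleotides in the window was set beside the ratio of each member. The highest counts were 40 for RAB31, 38 for RAB40C and 37 for RAB24, with ratios of 0.48, 0.09 and 0.56 at 3 h. The lowest were 2 for RAB40A and 6 for RAB17, with ratios of −0.12 each. Single members departed from any such order: RAB1B had 27 CpGs and a ratio of −0.17, and RAB9B had 21 and −0.68. Spearman's coefficient between the CpG count and the log ratio was 0.42 at 3 h over 35 members and 0.35 at 6 h over 34. Without RAB31 and RAB40A, the members farthest from the median count, it was 0.36 and 0.27. Over all named genes with a window the same coefficient was 0.09 for 8680 genes at 3 h and 0.11 for 8614 at 6 h. Points on 1 array share its RNA and its labelling, so these coefficients are descriptions.

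By role, the RABs of endocytosis and early endosomes had the highest medians, 0.40 at 3 h and 0.39 at 6 h over 7 genes. At each time 6 of the 7 were positive, where 51.3% of all named genes were at 3 h and 51.5% at 6 h. With the median of all named genes subtracted, 5 of the 7 were positive at each time. At each time 1, RAB21, was past 1.5-fold, as were 9.36% and 9.86% of all named genes in either sign. RAB5A, which controls fusion of early endosomes, had 0.40 at 3 h and 0.47 at 6 h. RAB5C, a paralog with the same role, had 0.13 and 0.08. RAB31, which carries cargo from the trans-Golgi network to endosomes, had 0.48 and 0.39, and its paralog RAB22A had −0.03 and 0.01. RAB24, linked to autophagy and counted in these medians, had 0.56 and 0.44. RAB20, of phagosomes and endosomes, had 0.02 and −0.37. Within this role RAB5A and RAB31 were each above the partner gene on both arrays by 0.27 or more. Each gene has 1 probe, and the within-gene SD of probes was 0.31 at 3 h and 0.33 at 6 h. A difference between paralogs therefore cannot be told apart from one between probes.

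**Figure D2:**
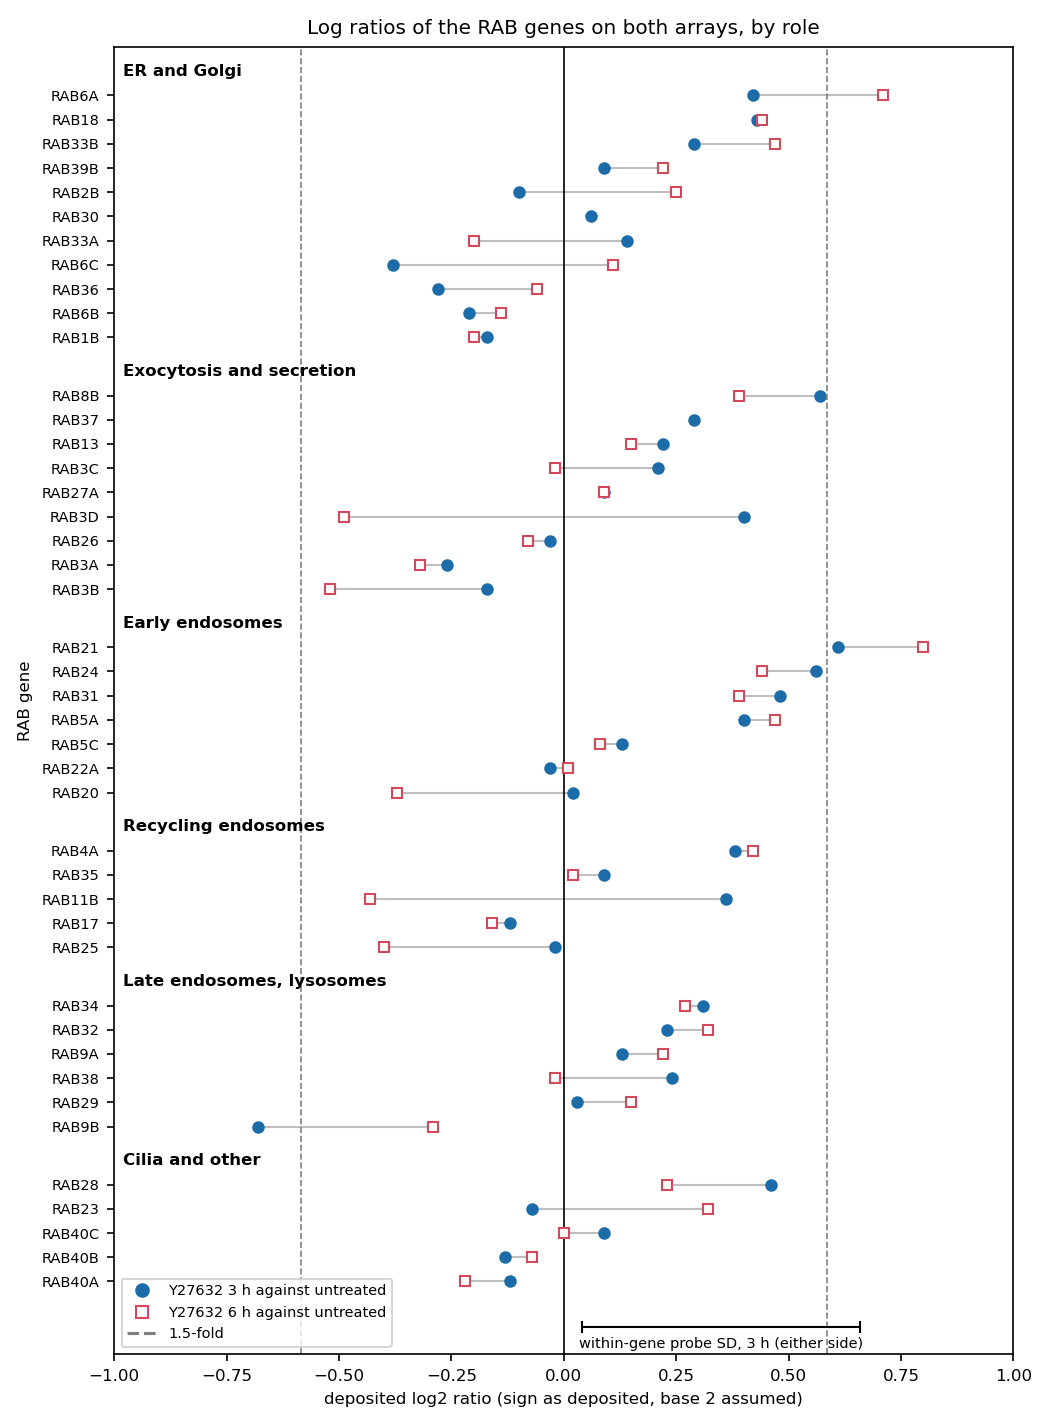
Deposited log2 ratios of the 43 RAB genes at 3 h (filled circles) and 6 h (open squares), grouped by role and ordered by mean within a role; dashed lines mark 1.5-fold and the black bar shows the within-gene probe SD of 0.31 to either side. RAB21 is the highest gene, RAB9B at 3 h the lowest, and most points lie within 1 such SD of 0.

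RABs of the endoplasmic reticulum and Golgi had medians of 0.06 at 3 h over 11 genes and 0.17 at 6 h over 10. RAB18, of lipid droplets and the endoplasmic reticulum, had 0.43 and 0.44, close to RAB6A at 3 h and below it at 6 h. RAB33B, a Golgi RAB that binds the autophagy protein ATG16L1, had 0.29 at 3 h and 0.47 at 6 h, whereas its paralog RAB33A had 0.14 and −0.20. RAB39B, a neuronal gene mutated in X-linked intellectual disability, had 0.09 and 0.22. RAB2B, of traffic between the Golgi and the endoplasmic reticulum, had −0.10 and 0.25, and RAB30, a Golgi RAB, had 0.06 at 3 h. On the negative side, RAB1B, which acts in transport from the endoplasmic reticulum to the Golgi, had −0.17 and −0.20. RAB36 had −0.28 and −0.06, and RAB6B, the neuronal paralog of RAB6A, had −0.21 and −0.14. RAB6C, a primate retrogene closely related to RAB6A and counted in these medians, had −0.38 and 0.11. Whether its product acts at these membranes was not examined. The ratios of RAB6A and RAB6C at 3 h lay 0.80 apart. Whether the RAB6A and RAB6C probes tell the transcripts apart was not tested.

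RABs of exocytosis and regulated secretion had medians of 0.21 at 3 h over 9 genes and −0.05 at 6 h over 8. RAB8B, which carries cargo to the plasma membrane, led them with 0.57 at 3 h and 0.39 at 6 h. RAB13, of tight junctions and surface delivery, had 0.22 and 0.15. The RAB3 genes, which act in exocytosis of synaptic and secretory vesicles, did not share a value: RAB3A had −0.26 and −0.32, RAB3B −0.17 and −0.52, and RAB3C 0.21 and −0.02, beside the sign change of RAB3D. RAB26, of secretory granules, had −0.03 and −0.08. RAB27A, which transports melanosomes and lytic granules, had 0.09 at both times, and RAB37 had 0.29 at 3 h.

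RABs of recycling endosomes had medians of 0.09 and −0.16 over 5 genes. RAB4A, of fast recycling, had 0.38 at 3 h and 0.42 at 6 h and was the one member of this role above 0.1 at both times. RAB35, also of fast recycling, had 0.09 and 0.02. RAB17, known from polarised epithelia, had −0.12 and −0.16, and RAB25, likewise epithelial, had −0.02 and −0.40. RAB11B completed this role with the values given above.

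RABs of late endosomes, lysosomes and related organelles had medians of 0.18 and 0.19 over 6 genes, with RAB9B as the one member below −0.1 at either time. RAB9A, which returns mannose 6-phosphate receptors to the trans-Golgi network, had 0.13 at 3 h and 0.22 at 6 h, 0.81 and 0.51 above RAB9B. RAB34, of lysosome positioning and cilium formation, had 0.31 and 0.27. RAB32 and RAB38 act together in melanosome biogenesis, and RAB32 had 0.23 and 0.32 where RAB38 had 0.24 and −0.02. RAB29, a partner of the kinase LRRK2, had 0.03 and 0.15. Among the remaining members, RAB28, of photoreceptor cilia, had 0.46 and 0.23, and RAB23, a regulator of Hedgehog signalling, had −0.07 and 0.32. The RAB40 genes, which join a RAB domain to a SOCS box that recruits a ubiquitin ligase, kept within 0.22 of each other: RAB40A had −0.12 and −0.22, RAB40B −0.13 and −0.07, and RAB40C 0.09 and 0.00.

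Members known mainly from neurons, immune, secretory, pigment or polarised epithelial cells were set beside the other members. These 11 genes (RAB3A, RAB3B, RAB3C, RAB6B, RAB17, RAB25, RAB26, RAB27A, RAB33A, RAB37 and RAB38) had a median of −0.02 at 3 h with 5 of 11 positive. The other 32 members had a median of 0.13 with 23 of 32 positive. At 6 h the specialised set had a median of −0.15 with 1 of 10 positive, RAB27A at 0.09, and the other members had a median of 0.22 with 22 of 31 positive. Of all named genes, 51.3% were positive at 3 h and 51.5% at 6 h. None of the specialised genes was past 1.5-fold at either time, where 9.36% and 9.86% of all named genes were. The lowest value of the specialised set was −0.52, for RAB3B at 6 h. The sets overlapped on both arrays. Among the other members, 9 of 32 were negative at 3 h and 8 of 31 at 6 h, with RAB9B, RAB3D, RAB11B and RAB20 the lowest at 6 h. RAB3D, of secretory cells, RAB32, of melanosomes, and RAB39B, a neuronal gene, were not on the list although they are also known from such cells. With these 3 added, a choice made after seeing the data, 8 of 14 specialised genes were positive at 3 h with a median of 0.09, and 3 of 13 at 6 h with a median of −0.14. The other members then had 20 of 29 positive at 3 h with a median of 0.13, and 20 of 28 at 6 h with a median of 0.19. The difference between the sets was not tested. Without spot intensities, whether the specialised genes gave signal above background in 293T cells was not tested either.

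Between the arrays, 18 of 41 members had a higher ratio at 6 h than at 3 h, 22 a lower one and RAB27A the same. The median difference of 6 h minus 3 h was −0.04, against −0.01 for all named genes, and the SD across members was 0.28, against 0.29. On the negative side 2 members, RAB3D and RAB11B, were past 1.5-fold, where 2.7% of named genes were, and on the positive side 0 were, where 3.05% were. Read as base 2 logarithms, no member reached 2-fold, against 1.2% of named genes. Read as natural logarithms, RAB3D would have −1.28 and RAB11B −1.14 on the log2 scale, past 2-fold, as would 1.77% of named genes on the negative side. The highest differences were 0.49 for RAB6C and 0.39 for both RAB9B and RAB23, and RAB2B had 0.35. After RAB3D and RAB11B, the lowest were −0.39 for RAB20, −0.38 for RAB25, −0.35 for RAB3B and −0.34 for RAB33A. A dye bias common to both arrays cancels in this difference, but an effect of time cannot be told apart from one of the array.

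**Figure D3:**
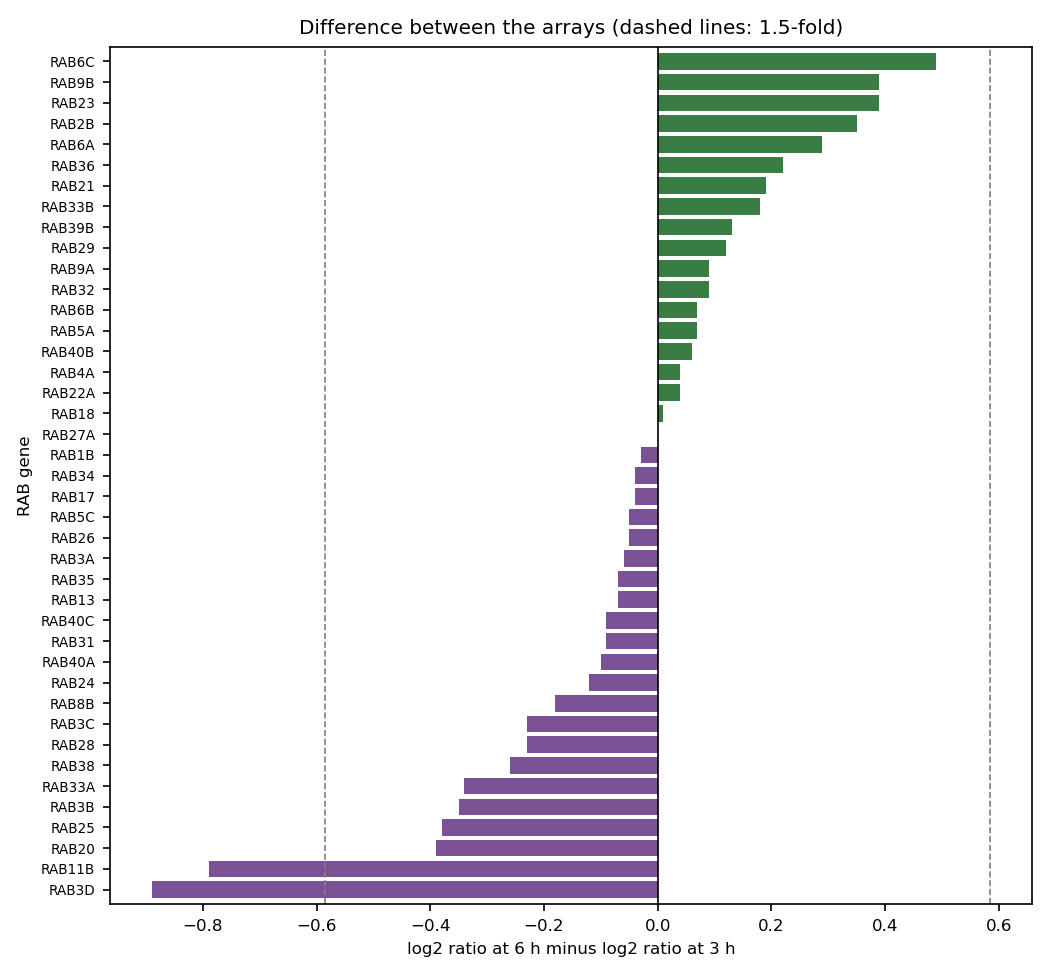
Difference of the log2 ratios, 6 h minus 3 h, for the 41 RAB genes with both values, from the highest at the top to the lowest at the bottom; dashed lines mark 1.5-fold. RAB3D at −0.89 and RAB11B at −0.79 lie beyond the line on the negative side and no gene does on the positive side.

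Of all named genes, 46.9% had a higher ratio at 6 h than at 3 h. By role, 8 of 10 RABs of the endoplasmic reticulum and Golgi did, with a median difference of 0.16. RAB6C, whose place in this role was not examined, is among them with 0.49. None of the 8 RABs of exocytosis did, with a median of −0.13. Of the early endosome RABs 3 of 7 did, with a median of −0.05, and of the recycling RABs 1 of 5, RAB4A by 0.04. Of the late endosome and lysosome RABs 4 of 6 did, with a median of 0.09, and of those of cilia and other sites 2 of 5, with a median of −0.09. Of the specialised members, 1 of 10 did, RAB6B by 0.07, and with the 3 genes added 3 of 13. These counts were not tested.

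The proteins that act on RABs showed values of the same small size, with a few exceptions. Of the genes of prenylation and recycling, 4 of 8 listed were measured. RABGGTB, the catalytic subunit of the RAB prenyltransferase, had 0.39 at 3 h and 0.46 at 6 h, and RABGGTA, its partner subunit, had −0.14 and −0.17. GDI2, which extracts RABs from membranes, had 0.00 and 0.07, and RABIF, a chaperone of nucleotide-free RABs, had 0.26 and 0.31. None of the 4 was past 1.5-fold, against 9.36% of all named genes at 3 h and 9.86% at 6 h. The 2 subunits of the transferase lay on opposite sides of 0 on both arrays.

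Of 50 exchange factor genes listed, 28 were measured, with a median of 0.02 at 3 h and one of 0.11 at 6 h. SMCR8, which forms a complex with C9orf72, had −1.14 at 3 h and −0.32 at 6 h. SMCR8 and C9orf72 were counted with the exchange factors, and their activity was not examined. RGP1, of the RAB6A exchange complex, had −0.68 and 0.11. SMCR8 and RGP1 were the 2 genes of this list past 1.5-fold at 3 h, and none was at 6 h. That is 7.14% and 0% of the measured list, below the 9.36% and 9.86% of all named genes past it in either sign. C9orf72 itself had 0.49 and 0.33 as the mean of 2 probes, of which one gave 0.30 and 0.61 and the other 0.68 and 0.04. DENND1B, an exchange factor of RAB35, had 0.27 and 0.41, and TRAPPC12, of the TRAPP tethering complex, had −0.41 and −0.33.

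Of 41 GTPase activating protein genes listed, 21 were measured, with medians of −0.10 and 0.14. None was past 1.5-fold at 3 h. At 6 h TBC1D5, an activator of RAB7A hydrolysis that binds retromer, was, at 0.66 against 0.08 at 3 h. That is 0% and 4.76% of the measured list, below the 9.36% and 9.86% of all named genes. TBC1D15 had 0.36 at 3 h and 0.41 at 6 h, and TBC1D1, of glucose transporter traffic, had 0.49 and 0.35. EVI5 had −0.57 and 0.18, and its paralog EVI5L had −0.56 and −0.37. RGP1 and TBC1D5 were chosen after their values were seen.

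Effectors were measured for 37 of 56 listed genes, with medians of 0.13 at 3 h over 36 genes and 0.14 at 6 h over 35, close to those of the RABs. On the positive side 3 were past 1.5-fold at each time, and on the negative side 1 was. In both signs together, that is 11.1% of the measured effectors at 3 h and 11.4% at 6 h. Of all named genes, 9.36% and 9.86% were past it, so the effectors lay near this background. EEA1, the tether that RAB5 recruits to early endosomes, had 1 and 1.54, and RABEP1, which joins RAB5 to its exchange factor, had 0.70 and 0.97. These are 2-fold and 2.91-fold differences for EEA1 and 1.62-fold and 1.96-fold for RABEP1. Each is larger in size than the value of any RAB on the same array, but RABEP1 at 3 h is close to RAB9B at −0.68. EEA1 and RABEP1 have 1 probe each. Of named genes, 0.66% at 3 h and 0.07% at 6 h lay as high as EEA1 or higher. For RABEP1 the shares were 2.87% and 0.82%. Further measured proteins that act with RAB5 lay nearer to 0: PIK3C3 had 0.45 and 0.47, PIK3R4 −0.02 and 0.24, RBSN 0.07 and 0.05, and RABEP2 −0.19 and −0.33. The further positive genes were SYTL2 at 0.62 at 3 h, without a value at 6 h, and LRRK2 at 1.01 at 6 h, without a value at 3 h. On the negative side, OCRL, an inositol lipid phosphatase, had −0.59 and −0.37, and RAB11FIP1, an adaptor of RAB11 and RAB25, had −0.41 and −0.62. Of its 2 probes one gave −0.17 and −0.65 and the other −0.65 and −0.59. All effectors named here other than EEA1, RABEP1, OCRL and RAB11FIP1 were chosen after their values were seen.

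**Figure D4:**
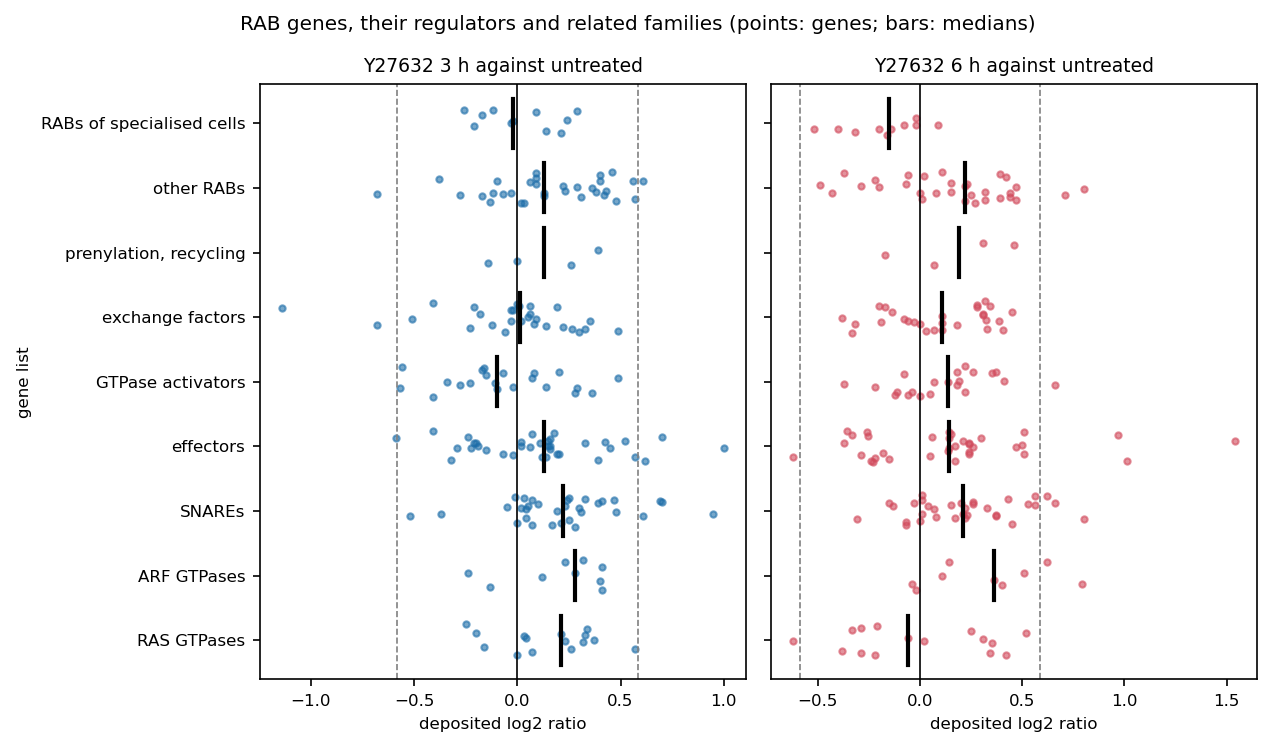
Deposited log2 ratios of single genes (points, with vertical jitter) and the median (black bar) for the RAB genes of specialised cells, the other RAB genes, RAB regulators and effectors, SNAREs and the ARF and RAS GTPases, at 3 h on the left and 6 h on the right; dashed lines mark 1.5-fold. The point of EEA1 at 6 h, 1.54, is the farthest out, and the medians of all lists lie between −0.15 and 0.36.

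Related families were counted in the same way. For SNAREs, the proteins that fuse vesicles downstream of RABs, the medians were 0.22 and 0.21, with 27 of 32 and 26 of 33 genes positive. Of the RAB genes 65.1% and 56.1% were positive, and of all named genes 51.3% and 51.5%. The ARF, ARL and SAR1 GTPases, of which some recruit vesicle coats, had medians of 0.28 and 0.36 over 9 genes. TRIM23, at 0.79 at 6 h, and ARL6, at 0.62, are counted among them. RAS, RAP and RAL GTPases had 0.21 and −0.06 over 15 genes. The RAB medians of 0.09 and 0.08 lay below those of the ARF family and of the SNAREs on both arrays, and the differences between families were not tested.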

How the data were processed

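Total RNA of 293T cells was amplified through an amino allyl procedure and hybridised to 2 two-colour oligonucleotide arrays, per the labels' protocols. The authors deposited 1 log ratio for each probe and array, taken here as log2. How the ratios were background corrected, normalized and filtered, their log base and their numerator is not given in the sources used here. The arrays were grouped by the time given for the Cy3 channel.

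Probes were named through the platform annotation, which gave 1 symbol for 13395 of 24267 probes. In RefSeq GRCh38.p14 10822 of these were current symbols and 2446 were unique synonyms, which were replaced. The remaining 127 had several possible replacements and stayed unchanged. Probes of a gene were averaged. Counts, medians and ranges were computed with pandas 2.3.3 and numpy 2.4.6 and the counting was tested on simulated data. No test across samples was possible with 1 array per time, which also limits the precision. Promoter windows came from RefSeq.

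Members and gene lists were chosen with earlier results of these data known. All members could be named, as could the genes of prenylation and recycling, EEA1, and the 2 highest and 2 lowest genes by mean in each list of exchange factors, activating proteins and effectors. Alternatives were the median or the farthest probe of a gene, centring, natural logarithms, a 2-fold size, current symbols only, genes with both values, and, chosen after seeing the data, adding RAB7 and RAB39, natural logarithms with a 2-fold size, and 3 more genes of specialised cells. The values of 1 gene list are not reported here.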

Additional observations from a re-analysis of the deposited data

Results flagged for a closer look

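RAB3D and RAB11B among the RAB genes, and RGP1, EVI5, TBC1D16, GCC2 and SBF1 among their regulators and effectors, are given here because the 3 h and 6 h ratios lay on opposite sides of 0 and the arrays differed by at least 1.5-fold. The differences of 6 h minus 3 h were −0.89 for RAB3D and −0.79 for RAB11B. They were 0.79 for RGP1, 0.75 for EVI5, 0.63 for TBC1D16, −0.76 for GCC2 and −0.71 for SBF1. None was tested, since each time has 1 array, and each of these genes has 1 probe. The same pattern held for 2 of 41 RAB genes and 5 of 87 regulators and effectors, and for 392 of 10469 named genes (3.74%). TBC1D16, GCC2 and SBF1 were chosen after their values were seen.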

How the results depend on the processing

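Of 81 recomputed counts and medians of the RAB genes, 71 stayed within 1.5 times the count or within 1 standard error of the median, taken as the within-gene SD over the square root of the number of genes. The 10 that moved were all counts. Read as natural logarithms, the values put 7 members past 1.5-fold on the positive side at 3 h and 7 at 6 h, 3 on the negative side at 6 h, and 1 on the positive side of the difference. With a 2-fold size, 0 members were counted on either side at 3 h, on the positive side at 6 h, and on the negative side of the difference. With natural logarithms and a 2-fold size together, chosen after seeing the data, 0 members were counted on either side at 3 h, 2 (RAB21 and RAB6A) on the positive side at 6 h, against 3.23% of named genes, and 2 on the negative side of the difference (RAB3D at −1.28 and RAB11B at −1.14 on the log2 scale), against 1.77%. These counts follow from how the alternatives are built. Over all alternatives the medians ranged from 0.07 to 0.13 at 3 h, from 0.05 to 0.12 at 6 h and from −0.06 to −0.04 for the difference. The share of positive members ranged from 62.8% to 65.1% at 3 h and from 51.2% to 56.1% at 6 h. No median changed sign, and no value of RAB21, RAB6A, RAB9B, RAB3D or RAB11B did. The signs of these genes could not change. Natural logarithms and another size keep every sign, and centring shifted each array by only 0.02. The farthest-probe and median-probe alternatives change no member, since each has 1 probe, and a 2-fold size changes no median. Those entries among the 81 could not move. No paired analysis was possible because each time has 1 array. Without spot intensities, signal over background is not known for any member.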
